A study of Paxillus involutus and Laccaria bicolor with 24 samples.

Results

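In *L. bicolor*, 47 low-count gene models with almost no reads during active growth were followed over the time course. A model was a member when its mean count over the 12 libraries was below 11, when its counts summed to at most 3 over the 3 libraries of t1, and when its mean count was at least 6 at t2, t3 or t4. The 47 models are 1.05% of the 4489 low-count models with any read and 0.203% of the 23130 *L. bicolor* models, and the series holds 41098 models with those of the second fungus studied, *P. involutus*. Mycelium of *L. bicolor* (strain S238N), an ectomycorrhizal basidiomycete, was grown on glass beads and deprived of nitrogen for a day. It was then given a hot-water extract of spruce forest soil organic matter with added glucose. Libraries were made on day 2 (t1, active growth, with glucose and ammonium present), day 13 (t2, ammonium depletion with glucose still present), day 23 (t3, glucose depletion) and day 30 (t4, prolonged glucose depletion). Each time point had 3 biological replicates, all from the same strain and medium, so that time in culture and nutrient phase cannot be told apart. In such bulk RNA, fewer active hyphae and less of a transcript in each also cannot be told apart.

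The members were chosen by their counts at t1 against later time points, so any difference from t1 is given as a description and supports nothing. The floor of 6 had to be met at only 1 later time point, and this favours models that are uneven among t2, t3 and t4. Calls among these time points are therefore descriptions as well. The models carry only their deposited names, most of which name a gene prediction program. None of the 47 matched the reference table used here, which covers *P. involutus*. No function or sequence could be assigned, and most models are described by their rank in highest mean count at any time point. Those beyond the first 10 ranks were picked for description after their values were seen. As general background, many fungal genes for the use of poorer nitrogen or carbon sources are held at low expression while ammonium or glucose is at hand, a regulation known as nitrogen and carbon catabolite repression. Ectomycorrhizal fungi normally receive sugar from a host tree, and none was present in these cultures.

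Libraries of *L. bicolor* held between 10598530 and 13187194 counted reads, and a single read was worth 0.0713 to 0.0971 CPM (reads scaled to the library size, with TMM factors between 0.951 and 1.064). The 47 models together took 2363 reads over all 12 libraries. At this depth the sampling of reads limits each single model.

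At t1 the members were close to silent but not empty. Of the 47 models, 7 had no read in any t1 library, 12 had 1 read in sum, 11 had 2 and 17 had 3, the highest sum the rule allows. The highest count of any member in a single t1 library was 3. Between 17 and 26 of the members had a read in each t1 library, against 32 to 41 in the libraries of t2, 45 to 47 at t3 and 46 to 47 at t4. The word silent therefore fits only the 7 models without a read, for which a count of 0 over the 3 libraries allows up to 3 reads.

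Summed over the members, the reads per library were 27, 37 and 21 at t1, 126, 123 and 108 at t2, 245, 230 and 256 at t3 and 395, 324 and 471 at t4. The order of the time points held in every library, and no libraries of different time points overlapped. In CPM the sum averaged 2.58 ± 0.561 in active growth (t1), 10.36 ± 0.625 in ammonium depletion (t2), 21.72 ± 1.24 in glucose depletion (t3) and 30.75 ± 2.495 in prolonged depletion (t4; SD, n = 3 libraries each). That t1 was lowest follows from the rule, and the floor of the rule also bears on the later steps. From t2, the summed level was 2.10 times as high at t3 and 2.97 times as high at t4. The other 4442 low-count models with any read also took more reads with time, but to a smaller extent. Their sum was 984.8 ± 18.6 CPM for t2, 1039 ± 31.5 CPM for t3 and 1124 ± 10.1 CPM for t4 (SD, n = 3). In the 1130 of them that met the same floor of 6 but had over 3 reads at t1, the summed level was 1.04 times the t2 level at t3 and 1.13 times at t4. The part of this general shift in the members' values was not tested.

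**Figure D1:**
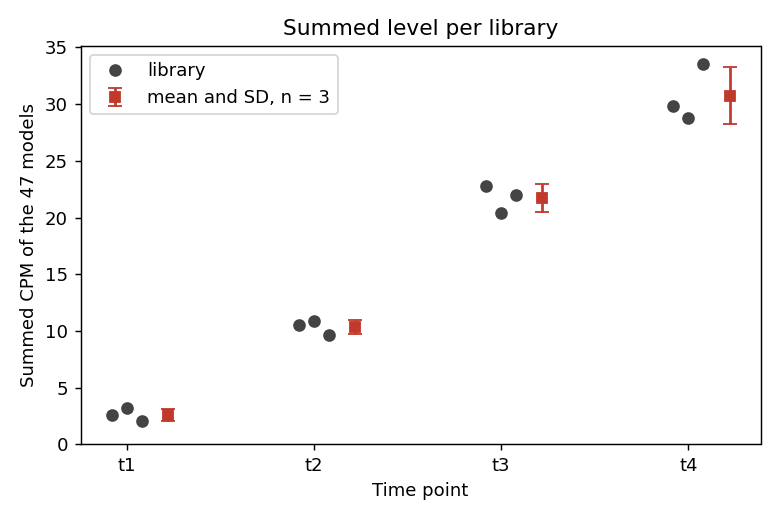
Summed level of the 47 *L. bicolor* models, in CPM on a linear axis, for each of the 12 libraries by time point (dark points), with the mean and SD of the 3 libraries (squares). The libraries of each later time point lie above all libraries of the one before, with means of 2.58, 10.36, 21.72 and 30.75 CPM.

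Most members were highest under prolonged glucose depletion. By mean CPM, 37 of the 47 (78.7%) were highest at t4, 7 at t3 and 3 at t2. A mean count of 6 was reached by 4 members at t2, by 14 at t3 and by 42 at t4. Of the 47, 31 reached it at t4 alone, 10 at t3 and t4, 2 at t3 alone, 2 at t2 alone, 1 at t2 and t3, and 1 at all 3 later time points. The mean CPM was higher at each time point than at the one before in 31 members. The highest mean count of a member lay between 6 and 22 reads, with a median of 7.67, and 13 members reached at least 10.

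**Figure D2:**
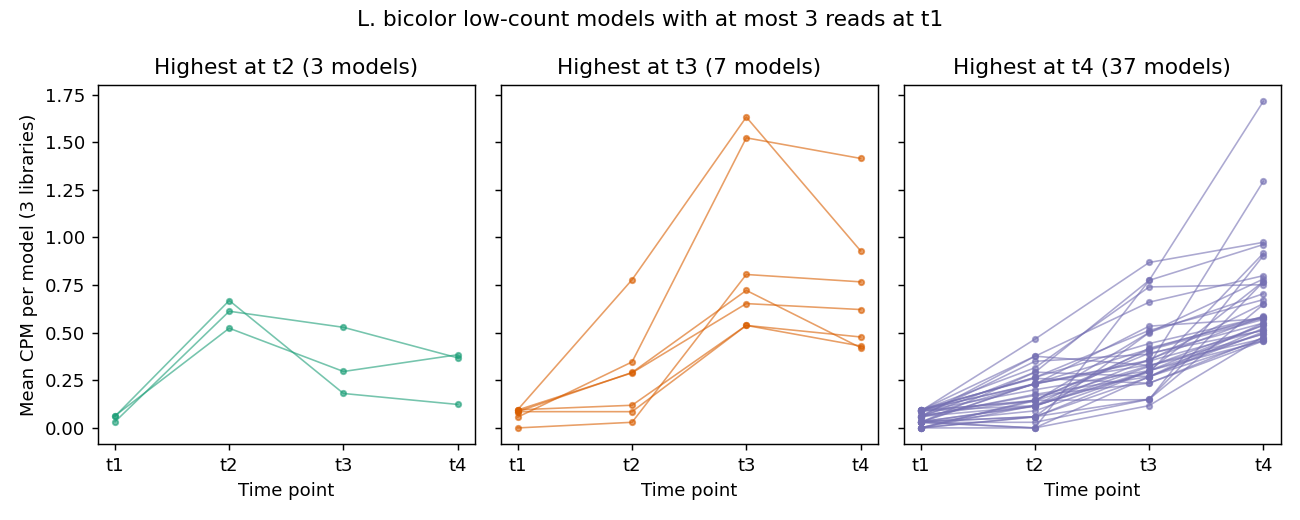
Mean CPM of each of the 47 models at t1 to t4 (mean of 3 libraries, linear axis, 1 line per model), split by the time point of the highest mean. The 3 models highest at t2 are on the left, the 7 highest at t3 in the middle and the 37 highest at t4 on the right, and all lines start near 0 because of the rule.

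The changes among t2, t3 and t4 were tested with edgeR's quasi-likelihood test over all 18841 *L. bicolor* models with any read, calling those under 1% after Benjamini-Hochberg adjustment over all of them. The rule treats t2, t3 and t4 alike, but 31 of the 47 members met its floor at t4 alone. For these the selection itself favours higher values at t4 than at t2. The counts and adjusted p values that follow therefore describe the members and are no independent test of their direction. At t4, 18 of the 47 members were higher than at t2 and 1 was lower, where 20.7% of all tested models were called higher and 20.5% lower. The 18 members are 38.3% of the list. DESeq2 called 11 higher and 0 lower, with no adjusted p for 1 member, and after the filter filterByExpr, which kept 6 of the 47, 4 were called higher and 0 lower. The call was rarer among low-count models in general, with 2.38% of the 4489 called higher. Among the 1130 low-count models that met the same floor but had over 3 reads at t1, 71 models (6.28%) were called higher and 47 (4.16%) lower, but these were not chosen for low values at t1, so the shares are not a like comparison. The median log2 fold change of t4 against t2 was 1.72 over the members (range -2.27 to 7.32) and 0.04 over all tested models. It was 0.19 over the 1130 other models of the same floor. The value was positive in 44 of the 47 members, and the median standard error of a single member was 0.66.

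The step from ammonium to glucose depletion was called in fewer members. At t3, 5 members were higher than at t2 and none was lower, where 14.6% of all tested models were called higher and 15.9% lower. At an unadjusted p under 0.05 the same test gave 16 members higher and 1 lower, where 22.2% of all tested models were higher and 21.6% lower. DESeq2 called 2 members higher and none lower but gave no adjusted p for 42 of the 47. The median log2 fold change of t3 against t2 was 1.19 over the members and 0.02 over all tested models. It was 1.17 with the 3 members that had no read at t2 set to their values against a floor of 3 reads. From t3 to the prolonged phase, 3 members were higher at t4 and none was lower, where 5.66% of all tested models were called higher and 7.22% lower. Here 8 members were higher and 1 lower at an unadjusted p under 0.05, where 13.9% of all tested models were higher and 14.5% lower. DESeq2 gave no adjusted p for any of the 47. The median log2 fold change of t4 against t3 was 0.53 over the members and 0.01 over all tested models. A joint test of the 3 later time points called 16 members, where 41.4% of all tested models were called, and DESeq2 called 8. Of the 4489 low-count models, 0.624% were higher and 0.557% lower at t3 than at t2. At t4 against t3 the shares were 0.223% and 0.0223%, and the joint test called 2.9%. Of the 1130 other models of the same floor, 1.77% were higher and 2.12% lower at t3 than at t2. At t4 against t3 the shares were 0.619% and 0.0885%, and the joint test called 9.2%. As before, the shares are not a like comparison. The counts for t3 against t2 and for t4 against t3 rested in part on single libraries. Without replicate 3 of t3, 3 members were higher at t3 than at t2. Without replicate 2 of t3 or without replicate 3 of t4, 1 member was higher at t4 than at t3.

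**Figure D3:**
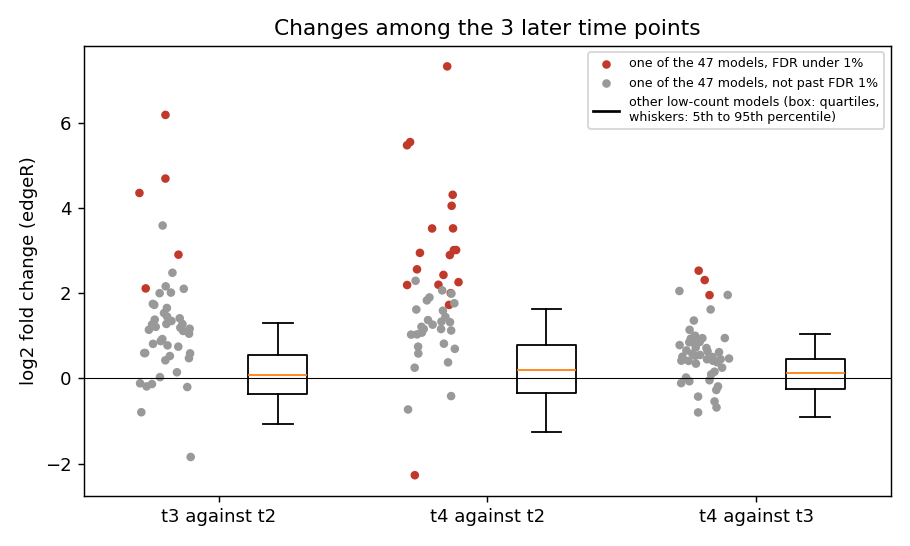
Log2 fold changes from edgeR for t3 against t2, t4 against t2 and t4 against t3. Points are the 47 models, red where the false discovery rate is under 1% (5, 19 and 3 models), and boxes show the 1130 other low-count models with the same floor (quartiles, whiskers from the 5th to the 95th percentile). The members' medians of 1.19, 1.72 and 0.53 lie above those of the other models, 0.09, 0.19 and 0.13.

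The CPM values of all 3 t4 libraries were above all 3 t2 libraries in 31 members and below them in 1, where 28.5% and 25.7% of all tested models did so. For t3 against t2 the numbers were 18 higher and 2 lower, where 23% and 22.3% of all tested models did so. For t4 against t3 they were 11 higher and 1 lower, where 15.5% and 16% of all tested models did so. With 3 libraries against 3, an exact permutation test of a single model cannot go below p = 0.1, so the false discovery rates above draw on the spread of all models.

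The member with the highest mean count at any time point was Lacbi1.UKU_1_phl36, which had no read at t2. Its counts were 1, 0 and 0 at t1, 0, 0 and 0 at t2, 8, 12 and 6 at t3 and 24, 19 and 23 at t4. Both glucose-depleted time points lay above the earlier ones, and the t4 libraries lay above those of t3. Against a floor of 3 reads over the 3 libraries of t2, its level was 19.7-fold higher at t4 and 8.86-fold higher at t3. The adjusted p was 4.59e-11 for t4 against t2 (edgeR's quasi-likelihood test). These folds leave out the counting error of its t3 and t4 reads and are not strict lower bounds. The 6 libraries of t1 and t2 held 1 read in all.

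Another member called higher at t4 than at t2 was fgenesh3_kg.LG_10_#_1259_#_Locus_36977_Transcript_1/1_Confidence_1.000, which had no read in any library of t1 or t2. It had 1, 0 and 3 reads at t3 and 3, 4 and 12 reads at t4. Its level at t4 was 5.67-fold higher than at t2 on the same floor (edgeR's quasi-likelihood test, adjusted p = 3.86e-04). The counting error of its t4 reads is again left out, and 63.2% of them came from replicate 3. This was the largest share of a single library in any member at its highest time point. The remaining member without a read at t2, ranked 47, had 4, 2 and 3 reads at t3 and 4, 5 and 9 at t4. On the same floor, and with the same error left out, its levels were 3.07-fold and 5.37-fold higher than at t2.

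One member fell after ammonium depletion. gm1.9679_g had 0, 1 and 1 reads at t1, 7, 10 and 6 at t2, 3, 2 and 1 at t3 and 3, 0 and 2 at t4. Its t2 libraries lay above all others. The log2 fold change of t4 against t2 was -2.27 (standard error 0.67, edgeR's quasi-likelihood test, adjusted p = 0.00319). It was the only member called lower in any of the 3 comparisons, and the call was lost in DESeq2, after filterByExpr, and without replicate 2 of t2, replicate 2 of t4 or replicate 3 of t4. The 2 other members that were highest at t2 did not pass in any of the 3 comparisons. The member ranked 29 had 6, 6 and 9 reads at t2, 3, 6 and 9 at t3 and 8, 4 and 2 at t4, and its groups overlapped. The member ranked 40 had 6, 5 and 7 reads at t2, 3, 3 and 4 at t3 and 7, 3 and 5 at t4, so that only its t3 libraries lay apart from t2.

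Of the 7 members that were highest at t3, 3 stood out by level or by the test. The member ranked 2 had 1, 0 and 2 reads at t1, 12, 11 and 4 at t2, 16, 21 and 18 at t3 and 11, 10 and 15 at t4. It was the only member with a mean of at least 6 at all 3 later time points, and its t3 libraries were above those of t2 and t4. The log2 fold change of t4 against t3 was -0.80 and did not pass (edgeR's quasi-likelihood test, adjusted p = 0.0836). The member ranked 3 had 0, 2 and 0 reads at t1, 5, 5 and 2 at t2, 6, 22 and 24 at t3 and 18, 14 and 23 at t4. Replicate 1 of t3 was close to the t2 libraries, while the other 2 t3 libraries were as high as t4. The log2 fold change of t3 against t2 was 2.11 (standard error 0.46, edgeR's quasi-likelihood test, adjusted p = 1.1e-04), and that of t4 against t2 was 2.00. The member ranked 10 had no read at t1, a single one in replicate 2 of t2, then 11, 7 and 9 in glucose depletion (t3) and 13, 6 and 11 in its prolonged phase (t4). All 6 libraries of these phases lay above all earlier ones. The log2 fold change of t4 against t3 was -0.04 with a standard error of 0.42.

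The 37 members that were highest at t4 differed in when they rose. The member ranked 4 had 0, 1 and 0 reads at t1, 2, 4 and 2 at t2, 6, 2 and 3 at t3 and 17, 14 and 19 at t4. Its t4 libraries were above all 9 others, and the log2 fold change of t4 against t3 was 1.96 (edgeR's quasi-likelihood test, adjusted p = 7.16e-04). The member ranked 8 had 1, 2 and 0 reads at t1, 2, 1 and 2 at t2, 1, 3 and 1 at t3 and 10, 10 and 15 at t4. Its log2 fold change of t4 against t3 was 2.53, the largest of the list. The remaining member called between t3 and t4, ranked 13, had 3, 1 and 1 reads at t3 and 13, 6 and 11 at t4. These 3 models were low at both ammonium depletion and early glucose depletion.

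Other members of this kind rose earlier or by smaller steps. The member ranked 5 had 3, 2 and 5 reads at t2, 10, 7 and 9 at t3 and 13, 7 and 18 at t4, and the member ranked 11 had 0, 2 and 0, then 3, 7 and 7, then 11, 9 and 10 in the same order. Both were called at t4 against t2, and only the second also at t3 against t2. The member ranked 7, without a read at t1, had 1, 0 and 3 reads at t2, 1, 3 and 6 at t3 and 14, 7 and 15 at t4. The members ranked 6 and 9 had 13, 13 and 11 reads and 7, 13 and 10 reads at t4, against 5, 5 and 6 reads and 6, 1 and 6 reads at t2. Neither passed at 1%, with adjusted p = 0.0444 and 0.0903 (edgeR's quasi-likelihood test).

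The members of the lower ranks lay near the floor. The highest mean count was between 6 and 7 in 16 members and exactly 6 in 8. Just outside, 18 models with at most 3 reads at t1 had a highest mean between 5.3 and 6, and 20 models met the floor but had 4 reads at t1. Above the upper limit, 7 models had at most 3 reads at t1 and mean counts between 11.17 and 436.9. By raw mean count, 4 of these were highest at t4 and 3 at t3. Among these 3 is a tie, a model with 24, 18 and 27 reads at t3 and 25, 14 and 30 at t4. The largest of the 7 models had 1, 0 and 2 reads at t1 and 223, 252 and 122 at t2, then 975, 978 and 929 at t3 and 604, 541 and 616 at t4. The list of 47 thus stops within a wider range of levels among models that were nearly silent at t1.

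The difference from t1 is described for completeness. In the 40 members with a read at t1, the summed count per unit of depth was 2.12 to 55.9 times as high at t4 as at t1, and the exact 95% interval of the ratio lay above 1 in 39 (counting error only). In the 7 members without one, t4 was 5.09-fold to 10.2-fold higher, against a floor of 3 reads over the 3 libraries of t1. These folds leave out the counting error of the t4 reads and are not strict lower bounds. At a false discovery rate of 1%, 40 members were called higher at t4 than at t1, 21 at t3 and 4 at t2, where 23.9%, 20.8% and 13.2% of all tested models were. The test of the whole course from t1 to t4 called 37, where 55.3% of all tested models were called. DESeq2 called 23 members higher at t4 than at t1, 12 at t3 and 1 at t2. It gave no adjusted p for 0, 8 and 45 members in the same order, and called 25 over the whole course. By the separation of CPM values, 45 members were higher at t4 than at t1, 39 at t3 and 12 at t2, where 31.1%, 27.8% and 20.5% of all tested models were. All these counts use the contrast by which the members were chosen.

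At the time point of the highest mean count, the variance over the mean of the 3 libraries had a median of 0.90, and it was below 1 in 25 of the 47 members. In the 1130 other low-count models with the same floor the median was 0.77, with 55.3% below 1. The highest of the 3 libraries held 43.3% of the reads at the median. Without its highest library, the mean at the highest time point was below 6 in 19 members (40.4%), against 15% of the other models with the same floor, whose highest means were larger (median 9.67, against 7.67 in the members).

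Applied to each time point in turn, the rule found most models at t1. In *L. bicolor*, 47 low-count models had at most 3 reads at t1 and the floor elsewhere, against 15 for t2, 4 for t3 and 8 for t4. Of the 15 models found for t2, 11 were also among the 47. More low-count models had at most 3 reads at t1 (2510) than at t2 (2341), t3 (2270) or t4 (2092). Of these, 1.87% at t1 met the floor elsewhere, against 0.641% for t2, 0.176% for t3 and 0.382% for t4. In *P. involutus*, whose t2 to t4 fell on earlier days, the same rule found 3 models for t1, 2 for t2, 4 for t3 and 8 for t4 among 1689 low-count models. No test was made of these counts. The median library total of *L. bicolor* was 11162078 reads for t1, 11602934 for t2, 11213208 for t3 and 12473940 for t4. Summed over the 3 libraries, as the rule sums reads, the unscaled totals were 34128967 for t1, 35153045 for t2, 33485802 for t3 and 36259664 for t4, fewest at t3. With TMM factors of 0.951 to 0.962 at t1 and 1.06 to 1.064 at t4, the summed scaled depth was lowest at t1 and highest at t4. The part of depth in the difference between time points was not tested. With counts scaled by TMM, 24 models met the rule at t1, all of them among the 47. Before scaling, 17 of the 47 lay at exactly 3 reads at t1 and 8 at exactly a mean of 6. The other time points were not scaled.

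**Figure D4:**
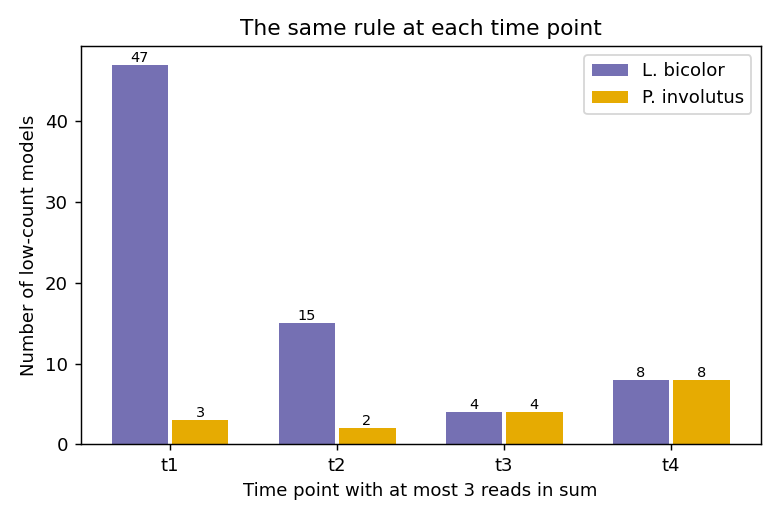
Number of low-count models with at most 3 reads in sum at the time point on the horizontal axis and a mean count of at least 6 at another time point, in *L. bicolor* and *P. involutus* (bars from 0, no error). The 47 models at t1 of *L. bicolor* exceed the 15, 4 and 8 found for t2, t3 and t4.

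By the program in their names, 22 of the members (46.8%) came from GeneWise, which predicts genes from similarity to known proteins, and 16 (34%) carried FGENESH in the name. GeneMark gave 4 (8.51%), EuGene 3 (6.38%) and other sources 2 (4.26%). Among the 4489 low-count models the shares were 43% for GeneWise, 30.4% for FGENESH, 11.8% for GeneMark, 13.8% for EuGene and 1% for other sources. Among all 23130 models GeneWise had 35.5% and FGENESH 36.4%. These shares were not tested.

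The authors' own normalized tables held only 2 of the 47 models, those ranked 2 and 3, each with a mean count of 10.08. This was also the lowest mean count of any of the 14476 models in these tables. In the deposited regularized log values (rlog, log2 scale) libraries without a read were not the lowest. For the member ranked 3 the rlog averaged 2.65 ± 0.12 for t1 and 2.52 ± 0.03 for t2, and 3.11 ± 0.58 for t3 and 2.97 ± 0.12 for t4 (SD, n = 3). Replicate 1 of t1, with no read, had an rlog of 2.73, while replicate 1 of t3, with 6 reads, had 2.44. The deposited factors that divide the counts of this model ranged from 0.0155 to 0.699 between libraries. They were 0.699 in replicate 1 and 0.17 and 0.177 in replicates 2 and 3 of t3, so that 6 reads became 8.59 and 22 and 24 reads became 130 and 135. For the member ranked 2 the factors ranged from 0.0103 to 0.368, and the rlog averaged 2.76 ± 0.14 for t1 and 2.91 ± 0.21 for t2, and 3.41 ± 0.16 for t3 and 2.91 ± 0.05 for t4. Replicate 2 of t1, with no read, had an rlog of 2.92, above the 2.68 of replicate 3 of t2 with 4 reads.

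**Figure D5:**
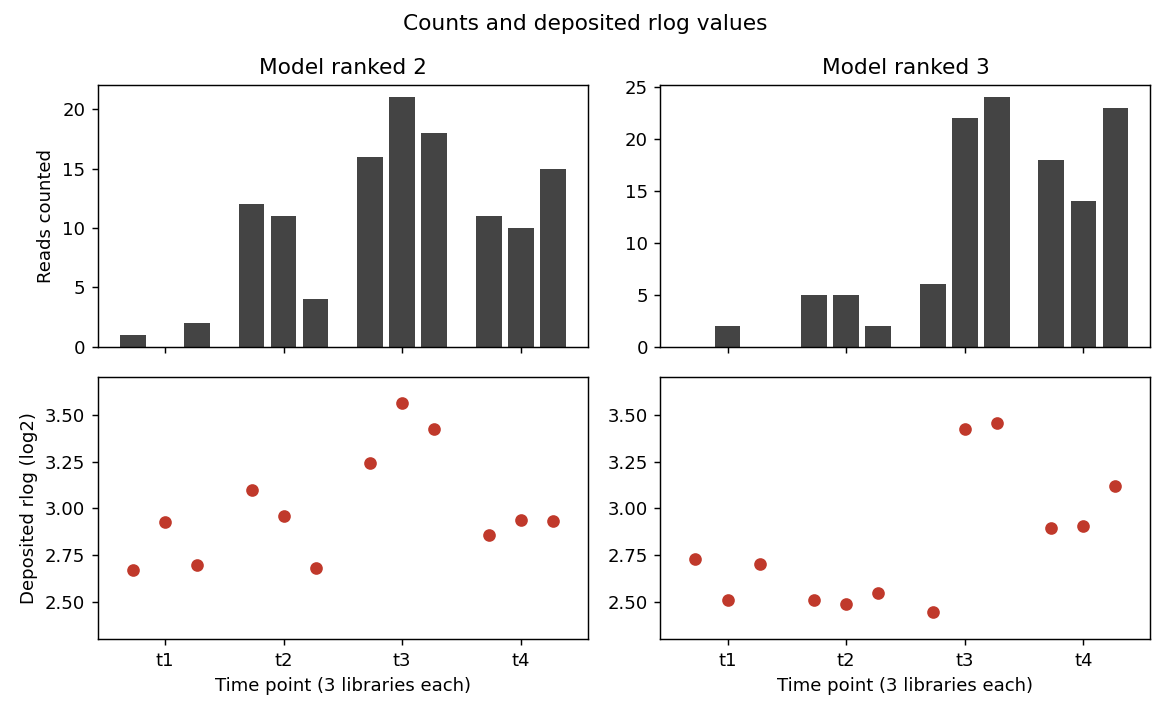
Counted reads (bars from 0, upper panels) and deposited rlog values (points, log2 scale, lower panels, axis not from 0) of the 2 models that the authors' normalized tables hold, for the 3 libraries of each time point. In the model ranked 3, replicate 1 of t1 with no read has a higher rlog (2.73) than replicate 1 of t3 with 6 reads (2.44).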

How the data were processed

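RNA of 24 mycelium libraries (12 of *L. bicolor*) was sequenced as single reads of 50 bp. The authors removed ribosomal reads, aligned the rest to the filtered gene models with TopHat2 (version 2.0.13), 1 hit per read, and deposited whole-read counts on coding sequence from HTSeq (version 0.6.1, by strand). Counts of near-identical copies are therefore uncertain. They also deposited, for models that passed a filter stated as a mean count of at least 11, factors given as a ratio per model and library, made with EDASeq and DESeq2 (version 1.14.1) for length, G/C content and depth, and rlog values on a log2 scale. Columns of both species were assigned by name.

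Here all *L. bicolor* models with any count were fitted in edgeR (version 4.0.16, R version 4.3.3) with TMM and the quasi-likelihood test, time point as the only term, all 12 libraries together and a false discovery rate of 1%. The study's minimum of 11, as stated, would remove every member, so it was not applied. Standard errors were derived from the F statistic. The fit was tested on simulated data. The members and lists were chosen with earlier results of these data known. Named models were the 2 largest and smallest log2 fold changes of t4 against t2 among calls without overlapping libraries. Both largest have no read at t2, where the fitted value is arbitrary, so their choice ranks nothing. Only 1 fell. DESeq2 (version 1.42.0), its size factors, filterByExpr, a rate of 5%, a replicate block, the 9 later libraries alone, each library left out, and other limits of the rule were tried.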

Additional observations from a re-analysis of the deposited data

How the results depend on the processing

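Normalization with DESeq2 size factors and a fit of the 9 libraries of t2 to t4 alone kept every number of called members within 1.5 times its value. DESeq2 gave 2 members higher at t3 than at t2, 11 higher and 0 lower at t4 than at t2, and 8 over the course from t2 to t4. It gave no adjusted p for 42, 1, 47 and 8 members in t3 against t2, t4 against t2, t4 against t3 and the course, so t4 against t3 has no value there. The filter filterByExpr kept 14879 models and 6 of the 47 members. Of these it called 2 higher at t3 than at t2, 4 higher and 0 lower at t4 than at t2, 1 higher at t4 than at t3, 4 over the course from t2 to t4 and 6 over the course from t1. At a false discovery rate of 5% the numbers were 9 higher and 1 lower at t3 than at t2, 28 higher at t4 than at t2 and 6 higher at t4 than at t3. The shares of all tested models given above are for 1% and are no background for these numbers. With the replicate block, 3 members were higher at t3 than at t2, and the other numbers of calls stayed within 1.5 times. Same-numbered libraries shared only a number, with correlations of their deviations between -0.03 and 0.07 over 18 pairs.

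The rule gave 7 models with no read allowed at t1, 13 with a floor of 10, and 24 with counts scaled by TMM. By raw mean count 4 members were highest at t3. Leaving out single libraries gave 44 to 67 members by the rule, the highest without replicate 2 of t1. Members higher at t3 than at t2 were 3 to 6 (0 lower), higher at t4 than at t2 13 to 18, lower 0 to 1, higher at t4 than at t3 1 to 4 (0 lower), and called over the courses from t2 and from t1 11 to 16 and 27 to 39. Members highest at t2, t3 and t4 were 2 to 3, 6 to 8 and 36 to 39, and summed CPM was 10.10 to 10.71, 21.19 to 22.40 and 29.34 to 31.72. The cause of these shifts was not tested, other than that filterByExpr and the settings without a library use fewer models or libraries.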

Other observations

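A group of models that the rule did not use was noticed after the values were seen. The deposited names of 26 *L. bicolor* models contain the letters phl, and no table used here says what they encode. Of these, 10 were low-count models, and 2 of the 47 members (ranked 1 and 3) and 2 of the 7 models above the upper limit with at most 3 reads at t1 were among them. The group makes up 4.26% of the members and 0.223% of all low-count models. Of the other 22 models, 1 had no read in any library and 21 were tested. At a false discovery rate of 1% in edgeR, 10 of the 21 were higher at t3 than at t2 and none was lower, and 10 were higher and 1 was lower at t4 than at t2, where 14.6% and 20.7% of all tested models were called higher and 15.9% and 20.5% lower. From t3 to t4, 2 were higher and 4 were lower, where 5.66% and 7.22% of all tested models were. The median log2 fold change over the 21 models was 1.06 for t3 against t2, 0.81 for t4 against t2 and 0.00 for t4 against t3. The 2 members with such names thus stood beside 10 models of higher counts that were also called higher at t3 than at t2. The rest of the 21 were not called higher in that comparison, and these included every low-count model among the 21. Reads shared between similar models were not tested. The t2 libraries serve in the comparisons of both t3 and t4 with t2.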
